A study of Mus musculus with 6 samples.

Results

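Imprinted genes are expressed mainly from the copy inherited from 1 parent. A list of 46 known imprinted mouse genes from 22 loci was followed in sorted male germ cells of Dnmt3A WT/WT and KO/KO samples. The members were found as rows bearing exactly these symbols. Rows were found for 45 of the 46 among 54087 gene rows, and Rtl1 is not analysed here. The study comprises 6 RNA libraries of C57BL/6 male germ cells taken at 10 days post partum (dpp), 3 from Dnmt3A WT/WT and 3 from Dnmt3A KO/KO samples. Cells in the bright and medium Id4-GFP gates were collected in all 6; per the labels these gates come close to the spermatogonial stem cells, which sustain sperm production. The labels do not say which exons of the gene were removed, whether a Cre driver was used or whether replicates came from separate animals, so p-values measure only the spread between these samples.

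At most imprinted loci a control region is methylated in the germ line of 1 parent, and the mark is kept after fertilization in somatic cells, where it sets which parental copy is transcribed. Most control regions are methylated in the oocyte. Those of H19-Igf2, Dlk1-Meg3 and Rasgrf1 are methylated in fetal male germ cells, where Dnmt3a and its cofactor Dnmt3L are known to act. Parental marks are erased in primordial germ cells, so the words maternally and paternally expressed describe somatic tissue, and counts per gene do not separate the copies.

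Gene rows held between 42681201 and 61749155 counts per library. The targeted gene, Dnmt3a, measured 215, 193 and 188 CPM (counts scaled to the size of the library) across WT/WT replicates against 90.2, 104 and 99.5 CPM across KO/KO replicates. The 12 germ cell markers summed to 2500 to 2647 CPM across WT/WT replicates against 2364 to 2673 CPM across KO/KO replicates, while single markers moved in opposite directions. Gfra1 and Ret, which form the GDNF receptor of undifferentiated spermatogonia, rose by 1.01 and 0.80 on the log2 scale (edgeR adjusted p = 0.00127 each). Dmrt1, Zbtb16 and Sall4, transcription factors of spermatogonia, fell by 0.76, 0.56 and 0.36 on the log2 scale (edgeR adjusted p of 0.00164, 0.0043 and 0.0485), and Sall4 passed in only 5 of 13 alternative settings. Id4, the gene of the reporter used in the gate, measured 36.9, 38.0 and 38.4 CPM across WT/WT replicates against 86.7, 176 and 159 CPM across KO/KO replicates (log2 fold change 1.89, SE 0.22, adjusted p = 0.000814). The part of such a difference between germ cells in the imprinted gene results was not tested. The sums for somatic cells were 390 to 610.0 CPM across WT/WT replicates against 398 to 564 CPM across KO/KO replicates for 8 Sertoli cell markers. For 5 interstitial stromal markers they were 77.7 to 104 CPM across WT/WT replicates against 36.7 to 53.6 CPM across KO/KO replicates (0 of 4 tested rose and 2 fell), and for 5 Leydig cell markers between 6.27 and 15.6 CPM and between 3.53 and 7.21 CPM. The stromal markers that fell were Col1a1 (66.3 ± 10.3 and 24.3 ± 6.05 CPM) and Pdgfra (19.6 ± 3.18 and 12.9 ± 0.476 CPM). Col3a1 (8.16 ± 1.39 and 7.04 ± 2.24 CPM) and Tcf21 (0.835 ± 0.160 and 0.647 ± 0.221 CPM) overlapped between genotypes (SD, n = 3 each). For 5 endothelial markers the sums were 19.8 to 26.3 CPM across WT/WT replicates against 76.7 to 117 CPM across KO/KO replicates (3 of 5 rose). Those that rose were Cdh5, Kdr and Vwf. Pecam1 (3.61 ± 1.14 and 4.04 ± 1.08 CPM) and Tek (3.04 ± 0.323 and 2.69 ± 0.366 CPM) overlapped between genotypes (SD, n = 3 each). Peritubular myoid markers summed to 5.83 to 19.3 CPM across WT/WT replicates against 8.31 to 11.9 CPM across KO/KO replicates. Macrophage markers summed to 1.32 to 2.21 CPM across WT/WT replicates against 3.83 to 4.79 CPM across KO/KO replicates, mainly through Cd68. Of the 2 macrophage markers tested, Cd68 rose (1.48 ± 0.278 and 4.07 ± 0.646 CPM). Ptprc overlapped between genotypes with a lower KO/KO mean (0.302 ± 0.164 and 0.155 ± 0.122 CPM). Adgre1, Csf1r and Lyz2 had at most 4 counts in any library. None of the germ cell or somatic markers was at 0 in all libraries. In such bulk samples, fewer cells of a type and less RNA per cell cannot be told apart, and the share of somatic RNA in the imprinted gene results below was not tested.

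Of the 45 members, 44 had enough counts to be tested. In KO/KO 11 rose and 7 fell, and 26 did not pass the test (edgeR quasi-likelihood test across all genes, Benjamini-Hochberg adjusted p under 0.05, called below). Across all 21314 genes tested 14.8% were called, 8.33% higher and 6.42% lower. Called members made up 40.9% of those tested. Among members with a mean of at least 1 CPM it was 16 of 38, against 17.4% of the 15876 genes at that level. The list was chosen with earlier results of these data known, so these shares are descriptions and were not tested. The genotypes did not overlap for 27 of the 44, with KO/KO wholly above for 18 and wholly below for 9, against 35.8% of all genes. The median log2 fold change of the tested members was 0.23, with a range from -1.67 to 1.69, beside a median of 0.0028 over all genes. The calls were sensitive to single libraries, for members and over all genes. Omitting WT/WT replicate 1 gave 8 members higher and 2 lower. Omitting WT/WT replicate 2 gave 4 and 1, and omitting WT/WT replicate 3 gave 6, with Mest newly called, and 2. Over all genes these fits gave 1083, 814 and 892 higher and 652, 560 and 663 lower, against 1776 and 1368 with all libraries. Omitting KO/KO replicate 3 gave 13 members higher, with Igf2r, Usp29 and Zim1 newly called, and 3 lower. Only Dlk1, Snrpn, Ndn, Zrsr1 and Trappc9 were called in all 6 fits that left out 1 library. The plot of fold changes by locus shows members of 1 locus moving apart as well as together.

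**Figure D1:**
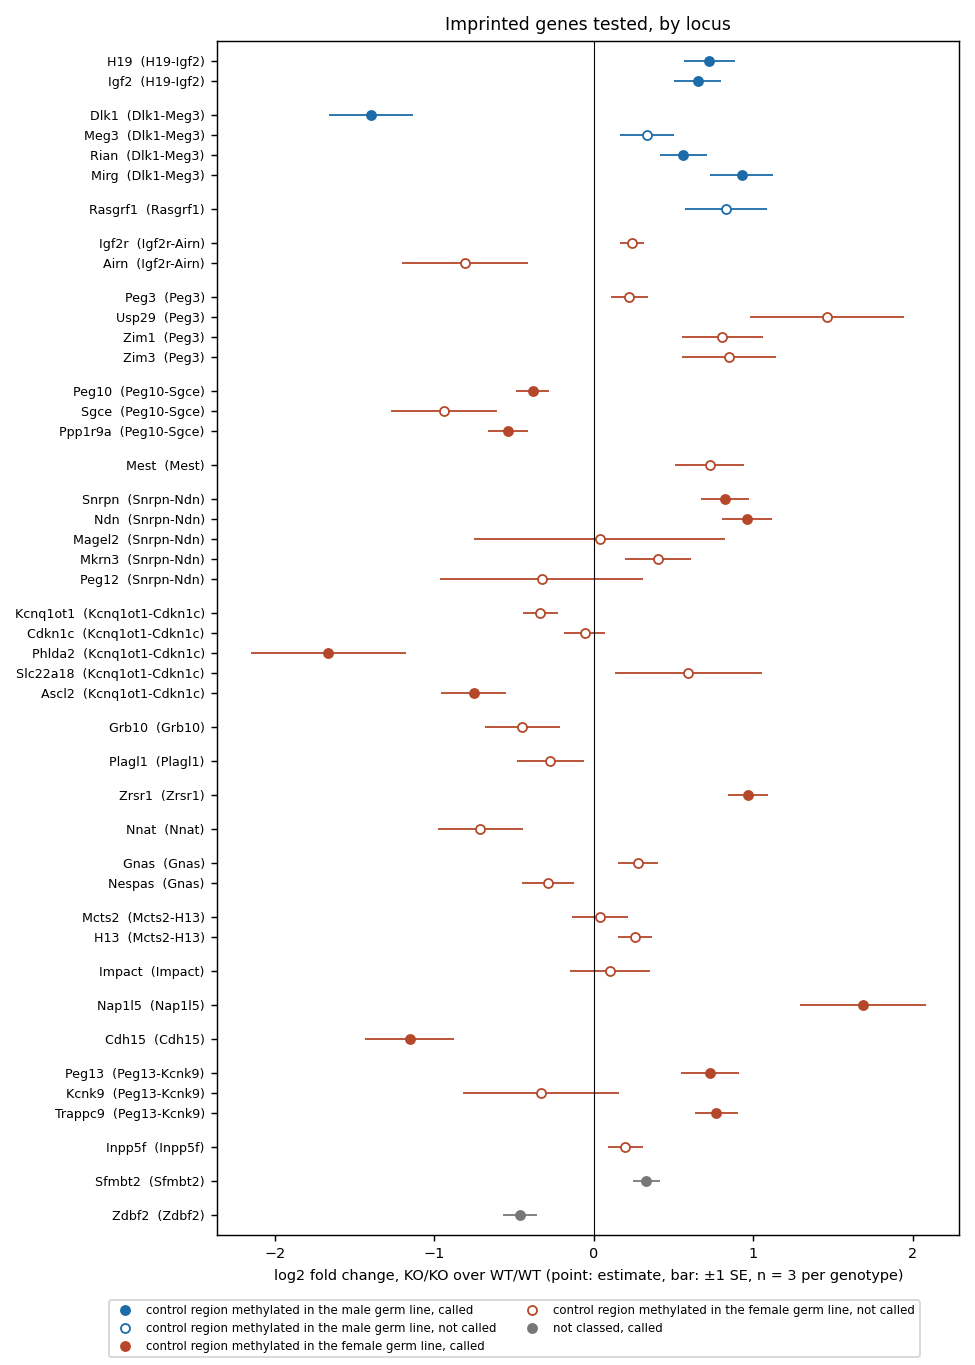
Log2 fold change (KO/KO over WT/WT, horizontal axis) of the 44 tested imprinted genes, ordered by locus, with bars of 1 standard error and n = 3 per genotype. Filled points mark the 18 called genes, from Phlda2 at -1.67 to Nap1l5 at 1.69; blue marks loci whose control region is methylated in the male germ line.

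Grouped by the parent that methylates the control region, the male germ line loci had 7 tested genes, of which 4 rose, 1 fell and 2 did not pass, with a median log2 fold change of 0.65. The female germ line loci had 35, of which 6 rose, 5 fell and 24 did not pass, with a median of 0.10. The shares called were 71.4% and 31.4%, against 14.8% of all genes tested (8.33% higher and 6.42% lower, median 0.0028). The other tested members, Sfmbt2, which rose, and Zdbf2, which fell, were placed in neither group. The difference between the groups was not tested. Without WT/WT replicate 2 or 3, no gene at male germ line loci was called higher and Dlk1 was still called lower. At the female germ line loci 4 and 5 were called higher. Calls over all genes dropped too, to 814 and 892 higher from 1776 with all libraries. Over the fits that left out 1 library, the lowest log2 fold changes of H19, Igf2, Rian and Mirg were 0.51, 0.56, 0.44 and 0.78. Grouped by the copy expressed in somatic tissue, 4 of 15 maternally expressed genes rose and 3 fell, and 7 of 25 paternally expressed genes rose and 3 fell (46.7% and 40% called, against 14.8% of all genes tested). In both of these groups rises and falls occurred side by side.

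The Dlk1-Meg3 locus lies on chromosome 12 (GRCm38, Dlk1 at 109452823 to 109463336, Meg3 at 109541001 to 109571726), where Dlk1, a membrane ligand related to the Notch ligands, is paternally expressed and the long non-coding RNAs Meg3, Rian and Mirg are maternally expressed. Dlk1 measured 19.4, 16.6 and 24.8 CPM across WT/WT replicates against 10.0, 4.62 and 8.48 CPM across KO/KO replicates. All KO/KO libraries lay below all WT/WT libraries, and the fall was the largest at this locus (log2 fold change -1.39, SE 0.26, n = 3 per genotype, adjusted p = 0.0077). Stromal and Leydig cells are also known sources of Dlk1 in the testis. The summed stromal markers lay lower in every KO/KO library, through Col1a1 and Pdgfra but not Col3a1 and Tcf21, as given above. The part of these cells in the fall of Dlk1 was not tested.

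Of the 3 non-coding RNAs of the locus, Rian and Mirg rose. Rian, which carries small nucleolar RNAs, measured 43.2, 39.8 and 31.3 CPM across WT/WT replicates against 46.8, 63.5 and 58.3 CPM across KO/KO replicates (a log2 change of 0.56, SE 0.15, adjusted p = 0.0312). Mirg, host of a large miRNA cluster, measured 4.13, 3.57 and 2.75 CPM across WT/WT replicates against 6.41, 7.09 and 6.40 CPM across KO/KO replicates (a log2 change of 0.93, SE 0.20, adjusted p = 0.0132). For both, every KO/KO library lay above every WT/WT library. Meg3, at the head of the series, measured 17.7, 19.1 and 14.3 CPM across WT/WT replicates against 17.0, 21.8 and 25.8 CPM across KO/KO replicates. These values overlap, and Meg3 did not pass the test (log2 fold change 0.34, SE 0.17, adjusted p = 0.226). Rian lost its call on omitting WT/WT replicate 2 (adjusted p = 0.0963) or 3 (0.113), or KO/KO replicate 2 or 3 (0.0592 each), and Mirg without WT/WT replicate 2 (adjusted p = 0.0619) or 3 (0.0556).

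Within a library, Meg3 had 0.914, 1.15 and 0.578 counts per Dlk1 count in WT/WT and 1.70, 4.71 and 3.04 in KO/KO. The ratio lay higher in every KO/KO library (mean difference 1.77 on the log2 scale). An exact permutation test gave a two-sided p of 0.1, the smallest that 3 against 3 samples allow (adjusted p = 0.15 over the 6 ratios computed). The ratio of Mirg to Meg3 also separated the genotypes, with 0.234, 0.187 and 0.191 in WT/WT and 0.377, 0.326 and 0.249 in KO/KO (mean difference 0.62 on the log2 scale, exact two-sided p = 0.1, adjusted p = 0.15). Relative to Meg3, Mirg thus lay higher in every KO/KO library.

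The RefSeq windows around the annotated starts of Dlk1 and Meg3 (250 bases before to 50 after the start, GRCm38.p6) are shown because the ratio of these neighbours separated the genotypes. Capitals mark CpG dinucleotides, the sites that Dnmt3a can methylate. The Dlk1 window (chr12:109452573-109452872, plus strand) holds 9 CpGs and the first Meg3 window (chr12:109540746-109541045, plus strand) holds 13.
Dlk1: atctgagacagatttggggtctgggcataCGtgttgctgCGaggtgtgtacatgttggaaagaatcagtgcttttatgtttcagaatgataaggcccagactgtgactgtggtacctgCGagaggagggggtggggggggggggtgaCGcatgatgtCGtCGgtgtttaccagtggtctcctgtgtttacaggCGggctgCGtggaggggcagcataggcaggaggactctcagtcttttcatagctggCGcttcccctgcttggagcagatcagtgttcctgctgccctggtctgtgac
Meg3: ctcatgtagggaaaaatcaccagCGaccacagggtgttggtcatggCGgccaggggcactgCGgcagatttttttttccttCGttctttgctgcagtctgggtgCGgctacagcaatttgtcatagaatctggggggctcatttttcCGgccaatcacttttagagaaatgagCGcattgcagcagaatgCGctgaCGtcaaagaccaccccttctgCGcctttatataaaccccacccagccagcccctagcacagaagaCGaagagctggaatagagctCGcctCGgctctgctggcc

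The annotation places 67 miRNA rows with values in the files between Dlk1 and Dio3, and 52 of them had at least 1 count. They summed to 3.04, 3.18 and 3.09 CPM across WT/WT replicates against 4.89, 8.03 and 5.24 CPM across KO/KO replicates, higher in every KO/KO library. The 23 snoRNA rows of the interval summed to 1.26, 1.62 and 1.03 CPM across WT/WT replicates against 1.59, 1.30 and 0.915 CPM across KO/KO replicates, which overlap. Of the 4 miRNA rows with enough counts to be tested, Mir1193 was called. It measured 2, 2 and 3 counts across WT/WT replicates against 13, 22 and 20 counts across KO/KO replicates (log2 fold change 2.66, SE 0.61, adjusted p = 0.0181). It lost its call without any 1 WT/WT replicate (adjusted p between 0.0707 and 0.114) or KO/KO replicate 2 (0.0579). These rows were examined after their values were seen. A row covers the hairpin, and total RNA libraries hold precursor transcripts, so the counts do not say whether a mature arm was present, or which. The arms of Mir1193 in RefSeq, with the seed (bases 2 to 8) in capitals, are shown to identify this row.
mmu-miR-1193-5p: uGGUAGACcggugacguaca
mmu-miR-1193-3p: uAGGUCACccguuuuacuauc

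The protein-coding genes that flank the locus did not pass the test. Begain averaged 20.5 ± 3.28 CPM across WT/WT replicates against 17.98 ± 1.90 CPM across KO/KO replicates (SD, n = 3 each). Dio3, a deiodinase that inactivates thyroid hormone at the far end of the domain, stood at 0.663 ± 0.125 and 0.273 ± 0.121 CPM (log2 fold change -1.26, SE 0.48, adjusted p = 0.113).

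At H19-Igf2 on chromosome 7 (H19 at 142575529 to 142578143, Igf2 at 142650766 to 142666816), where the genes are expressed from opposite parental copies in somatic cells, both rose. H19, a long non-coding RNA, measured 49.2, 48.1 and 41.0 CPM across WT/WT replicates against 63.5, 66.8 and 98.0 CPM across KO/KO replicates (a log2 change of 0.72, SE 0.16, adjusted p = 0.0158). Igf2, a fetal growth factor, measured 7.49, 9.14 and 9.04 CPM across WT/WT replicates against 13.1, 12.3 and 14.9 CPM across KO/KO replicates (a log2 change of 0.65, SE 0.15, adjusted p = 0.018). The genotypes did not overlap for either gene. H19 lost its call on omitting WT/WT replicate 2 (adjusted p = 0.0604) or 3 (0.0746), and Igf2 without any 1 WT/WT replicate (0.0812, 0.0648 and 0.0543).

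The ratio of the pair did not separate the genotypes. H19 had 6.57, 5.27 and 4.53 counts per Igf2 count in WT/WT and 4.84, 5.44 and 6.58 in KO/KO, which overlap (mean difference 0.05 on the log2 scale, exact permutation test, two-sided p = 0.7, adjusted p = 0.8). Igf2os, an antisense RNA of Igf2 named after its values were seen, measured 2.49, 2.06 and 2.40 CPM across WT/WT replicates against 3.98, 3.85 and 5.09 CPM across KO/KO replicates (a log2 change of 0.90, SE 0.21, adjusted p = 0.0205, and between 0.0609 and 0.105 without any 1 WT/WT replicate). Exons of Igf2os cover 1.71% of the exon bases of Igf2 in GENCODE M21, and those of the predicted gene Gm49394, on the same strand, cover 62.8%. Among the gene rows counted here none bears the symbol Gm49394. No source used here gives the strand setting of the counting, so reads in the stretch shared with Igf2os cannot be assigned to either strand. The summed endothelial markers also lay higher in every KO/KO library, through Cdh5, Kdr and Vwf but not Pecam1 and Tek, as given above. Their part in the rises of H19 and Igf2 was not tested.

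Rasgrf1, a guanine nucleotide exchange factor on chromosome 9 (89909908 to 90026977), measured 6.21, 4.57 and 5.0 CPM across WT/WT replicates against 6.19, 12.9 and 8.99 CPM across KO/KO replicates. KO/KO replicate 1 lay within the WT/WT range, and the gene did not pass the test (log2 fold change 0.83, SE 0.26, adjusted p = 0.0592). Without KO/KO replicate 1 it did (log2 fold change 1.07, adjusted p = 0.0139), as it did with DESeq2 (adjusted p = 0.0115) and without a filter on low counts (0.00133).

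**Figure D2:**
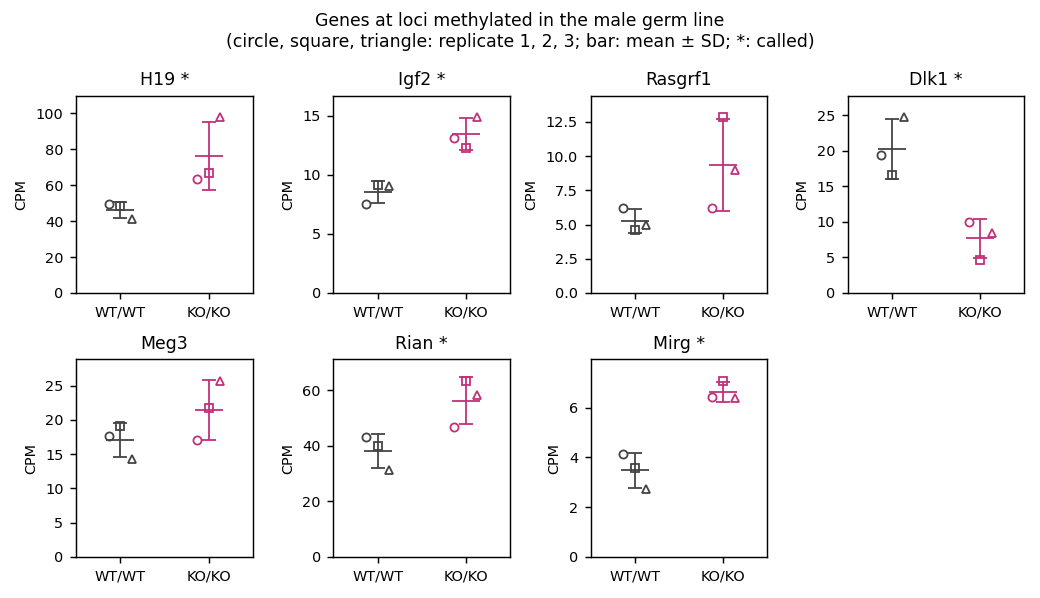
CPM (vertical axis, from 0) of the 7 genes at loci methylated in the male germ line, with 1 symbol per replicate and bars for mean ± SD; an asterisk marks called genes. Dlk1 falls below the WT/WT libraries in every KO/KO library, H19, Igf2, Rian and Mirg lie above them, and Meg3 and Rasgrf1 overlap.

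The Snrpn-Ndn domain on chromosome 7, the mouse counterpart of the Prader-Willi region, holds 6 members that are all paternally expressed. Of the 5 tested, 2 rose and none fell. Ndn (62346569 to 62350262), which encodes the growth suppressor necdin, measured 7.56, 9.84 and 10.2 CPM across WT/WT replicates against 18.1, 16.2 and 19.5 CPM across KO/KO replicates (a log2 change of 0.96, SE 0.15, adjusted p = 0.00363). Snrpn (59982495 to 60140219), which encodes a spliceosomal protein, measured 6.87, 6.33 and 7.40 CPM across WT/WT replicates against 12.3, 10.8 and 13.3 CPM across KO/KO replicates (a log2 change of 0.82, SE 0.15, adjusted p = 0.00647). For both, the lowest KO/KO library exceeded the highest WT/WT library, and the calls held in all fits that left out 1 library.

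The other tested genes of this domain did not pass the test. Mkrn3 averaged 2.91 ± 0.529 CPM across WT/WT replicates against 3.84 ± 0.0601 CPM across KO/KO replicates (adjusted p = 0.233). Magel2 and Peg12 were scarce, with at most 23 and 28 counts per library and log2 fold changes of 0.04 (SE 0.79) and -0.33 (SE 0.64). With standard errors of this size only a large change could have been called. Snurf had 0 counts in all libraries, where 3 counts would have been between 0.0465 and 0.0735 CPM. All of its exon bases lie under exons of Snrpn, and how reads in shared exons were assigned is not stated, so this 0 does not measure the Snurf reading frame.

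Zrsr1 and Nap1l5 are intronless genes derived from retrotransposed copies, each inside a host gene on the opposite strand. Zrsr1, a relative of the splicing factor U2AF on chromosome 11 (22972005 to 22976496), measured 35.8, 37.3 and 35.9 CPM across WT/WT replicates against 61.6, 85.8 and 65.8 CPM across KO/KO replicates. All KO/KO libraries lay above all WT/WT libraries, and it had the smallest p of the members (log2 fold change 0.97, SE 0.13, adjusted p = 0.00137). Its host Commd1 averaged 10.6 ± 1.68 CPM across WT/WT replicates against 11.5 ± 1.31 CPM across KO/KO replicates and did not pass (adjusted p = 0.683). Zrsr1 had 4.13, 3.29 and 3.04 counts per Commd1 count in WT/WT and 5.12, 8.57 and 5.28 in KO/KO, which do not overlap (exact permutation test, two-sided p = 0.1, adjusted p = 0.15). Exons of Commd1 cover 9.17% of the exon bases of Zrsr1, so the rows of this ratio share some exon bases.

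Nap1l5, a nucleosome assembly protein relative on chromosome 6 (58905233 to 58907076), measured 0.571, 0.249 and 0.368 CPM across WT/WT replicates against 1.497, 1.26 and 1.09 CPM across KO/KO replicates. The genotypes did not overlap (log2 fold change 1.69, SE 0.39, adjusted p = 0.0198). This rests on 12 to 25 counts per WT/WT library and 62 to 70 per KO/KO library, and omitting WT/WT replicate 2 (adjusted p = 0.0877) or 3 (0.0764) ended the call. Its host Herc3 measured 46.9, 50.2 and 51.8 CPM across WT/WT replicates against 60.7, 79.4 and 57.3 CPM across KO/KO replicates, with KO/KO wholly above WT/WT but no call (log2 fold change 0.41, SE 0.13, adjusted p = 0.058). Reads from introns of Herc3 may fall in Nap1l5, and their share was not tested.

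The windows of Ndn (chr7:62348027-62348326, plus strand), Zrsr1 (chr11:22971755-22972054, plus strand) and Nap1l5 (chr6:58907077-58907376, minus strand) are shown because these paternally expressed genes had the largest log2 fold changes among members that rose. They hold 11, 10 and 17 CpGs, again in capitals. GENCODE M21 starts Ndn further upstream, at 62346569, so by that annotation the Ndn window lies inside the gene.
Ndn: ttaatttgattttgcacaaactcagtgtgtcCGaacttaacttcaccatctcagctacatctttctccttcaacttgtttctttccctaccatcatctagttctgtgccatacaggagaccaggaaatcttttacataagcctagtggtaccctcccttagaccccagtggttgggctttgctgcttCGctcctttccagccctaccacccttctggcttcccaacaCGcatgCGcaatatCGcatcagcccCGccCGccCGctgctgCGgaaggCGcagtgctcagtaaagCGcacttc
Zrsr1: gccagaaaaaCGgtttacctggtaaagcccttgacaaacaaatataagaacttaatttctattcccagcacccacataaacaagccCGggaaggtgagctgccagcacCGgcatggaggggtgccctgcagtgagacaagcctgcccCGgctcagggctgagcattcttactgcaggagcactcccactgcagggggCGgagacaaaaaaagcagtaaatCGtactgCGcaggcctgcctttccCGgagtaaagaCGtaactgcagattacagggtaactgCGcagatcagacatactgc
Nap1l5: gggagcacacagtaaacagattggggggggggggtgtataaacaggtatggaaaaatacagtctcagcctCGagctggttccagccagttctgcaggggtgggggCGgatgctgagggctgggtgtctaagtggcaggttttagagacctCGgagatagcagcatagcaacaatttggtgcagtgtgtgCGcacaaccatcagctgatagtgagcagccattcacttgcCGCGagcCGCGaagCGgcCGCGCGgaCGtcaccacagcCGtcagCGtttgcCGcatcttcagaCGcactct

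RefSeq windows were matched for 35 of the 46 members, 51 windows in all, some of which overlap. They held a median of 14 CpGs, against 7 over all 32851 windows of this length. The hexamer TGCCGC, the core of the motif to which the imprint-protecting protein ZFP57 binds when methylated, was searched on both strands (as TGCCGC or GCGGCA). It occurred in 13 member windows (25.5%), against 11.6% of all windows. The hexamer itself holds a CpG, and these shares were not adjusted for the higher CpG count of the member windows. The 13 include the same window under both Snrpn and Snurf, and overlapping windows of Mest. Of the windows shown, that of Meg3 held 1 match and that of Nap1l5 held 2. A match is a description of the letters, since methylation and binding were not measured in these files.

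The Peg13-Kcnk9 locus on chromosome 15 contains Trappc9 (72589620 to 73061204), a subunit of a vesicle tethering complex, and the non-coding RNA Peg13 inside 1 of its introns on the same strand. Trappc9 measured 36.4, 29.9 and 31.0 CPM across WT/WT replicates against 47.6, 65.4 and 52.6 CPM across KO/KO replicates (a log2 change of 0.77, SE 0.13, adjusted p = 0.00545). Peg13 measured 3.65, 4.22 and 4.19 CPM across WT/WT replicates against 7.26, 5.70 and 7.04 CPM across KO/KO replicates (a log2 change of 0.73, SE 0.18, adjusted p = 0.0245). Neither overlapped between genotypes. In brain tissue the pair is expressed from opposite parental copies. The ratio of Peg13 to Trappc9 ranged from 0.1004 to 0.141 in WT/WT and from 0.0871 to 0.153 in KO/KO (exact permutation test, two-sided p = 0.8, adjusted p = 0.8). Intronic reads of Trappc9 can fall in Peg13, and their share was not tested. Peg13 lost its call without any 1 WT/WT replicate (adjusted p = 0.102, 0.0892 and 0.0744), without KO/KO replicate 1 (0.0533) and with replicate number as a block (0.0545).

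Neighbours at this locus did not rise with the pair. Ago2, which encodes the Argonaute slicer of RNA interference, measured 46.3, 44.0 and 51.0 CPM across WT/WT replicates against 35.3, 32.5 and 34.7 CPM across KO/KO replicates (a log2 change of -0.46, SE 0.10, adjusted p = 0.0123, and 0.0671 without WT/WT replicate 3). Chrac1 stood at 14.7 ± 0.441 and 14.1 ± 1.89 CPM. Kcnk9, a potassium channel gene, was scarce (log2 fold change -0.33, SE 0.49, adjusted p = 0.702).

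At Peg10-Sgce on chromosome 6 (Peg10 at 4747306 to 4760517), 2 of 3 members fell. Ppp1r9a, which encodes the actin-binding protein neurabin, measured 131, 107 and 95.7 CPM across WT/WT replicates against 73.5, 71.1 and 85.4 CPM across KO/KO replicates (a log2 change of -0.54, SE 0.12, adjusted p = 0.0186). Peg10, a gene derived from a retrotransposon, measured 67.3, 57.0 and 56.5 CPM across WT/WT replicates against 42.7, 49.9 and 46.1 CPM across KO/KO replicates (a log2 change of -0.38, SE 0.10, adjusted p = 0.0369). Neither overlapped. Sgce, which encodes epsilon-sarcoglycan and starts beside Peg10 in the opposite direction, stood at 2.81 ± 0.779 and 1.47 ± 0.512 CPM (log2 fold change -0.94, SE 0.33, adjusted p = 0.0898). Ppp1r9a lost its call on omitting WT/WT replicate 1 (adjusted p = 0.0687) or 2 (0.0613). Peg10 kept its call among these fits only without KO/KO replicate 2, with adjusted p between 0.0728 and 0.148 without each other library and 0.0729 with the block.

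At Kcnq1ot1-Cdkn1c on chromosome 7 (Kcnq1ot1 at 143203458 to 143296549), 2 of 5 members fell, both maternally expressed regulators of placental growth in somatic tissue. Ascl2, a basic helix-loop-helix factor, measured 7.24, 6.79 and 6.47 CPM across WT/WT replicates against 4.96, 4.07 and 3.15 CPM across KO/KO replicates (a log2 change of -0.75, SE 0.20, adjusted p = 0.0341). Phlda2 measured 33, 96 and 47 counts across WT/WT replicates against 29, 14 and 20 counts across KO/KO replicates (log2 fold change -1.67, SE 0.48, adjusted p = 0.0464). For both genes every KO/KO library lay below every WT/WT library in CPM. Ascl2 lost its call without any 1 WT/WT replicate (adjusted p between 0.0855 and 0.115), KO/KO replicate 2 (0.0539) or 3 (0.068). Phlda2 lost it without WT/WT replicate 2 (log2 fold change -1.21, adjusted p = 0.228) or 3 (0.104), KO/KO replicate 2 (0.0984) or 3 (0.107), with limma-voom (0.0572) and with the block (0.0838).

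The non-coding RNA Kcnq1ot1, which silences neighbours of this locus in somatic tissue, measured 211, 198 and 219 CPM across WT/WT replicates against 196, 152 and 149 CPM across KO/KO replicates. Every KO/KO library was lower, and it did not pass the test (log2 fold change -0.34, SE 0.11, adjusted p = 0.069). Cdkn1c, which encodes the cell cycle inhibitor p57, overlapped between genotypes at 24.8 ± 2.82 and 23.8 ± 2.72 CPM (SD, n = 3 each). Slc22a18, a transporter gene, was at most 1.20 CPM in any library.

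Sfmbt2, a polycomb-related gene on chromosome 2 (10370510 to 10595253), measured 122, 129.8 and 142 CPM across WT/WT replicates against 164, 172 and 159 CPM across KO/KO replicates (a log2 change of 0.33, SE 0.08, adjusted p = 0.0253). Zdbf2, a zinc finger gene on chromosome 1 (63273265 to 63314576), measured 62.5, 56.4 and 59.2 CPM across WT/WT replicates against 38.9, 48.6 and 41.5 CPM across KO/KO replicates (a log2 change of -0.46, SE 0.11, adjusted p = 0.0174). Cdh15, which encodes M-cadherin, lies on chromosome 8 (122847966 to 122867397) and measured 8.88, 8.91 and 10.2 CPM across WT/WT replicates against 6.14, 2.55 and 3.92 CPM across KO/KO replicates (a log2 change of -1.15, SE 0.28, adjusted p = 0.0226). The genotypes did not overlap for any of these 3. Sfmbt2 lost its call on omitting WT/WT replicate 1 (adjusted p = 0.119) or 2 (0.123) and with the block (0.0515). Zdbf2 lost it without any 1 WT/WT replicate (between 0.0571 and 0.0752) or KO/KO replicate 1 (0.0517), and Cdh15 without any 1 WT/WT replicate (between 0.0603 and 0.0847) or KO/KO replicate 3 (0.0539).

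**Figure D3:**
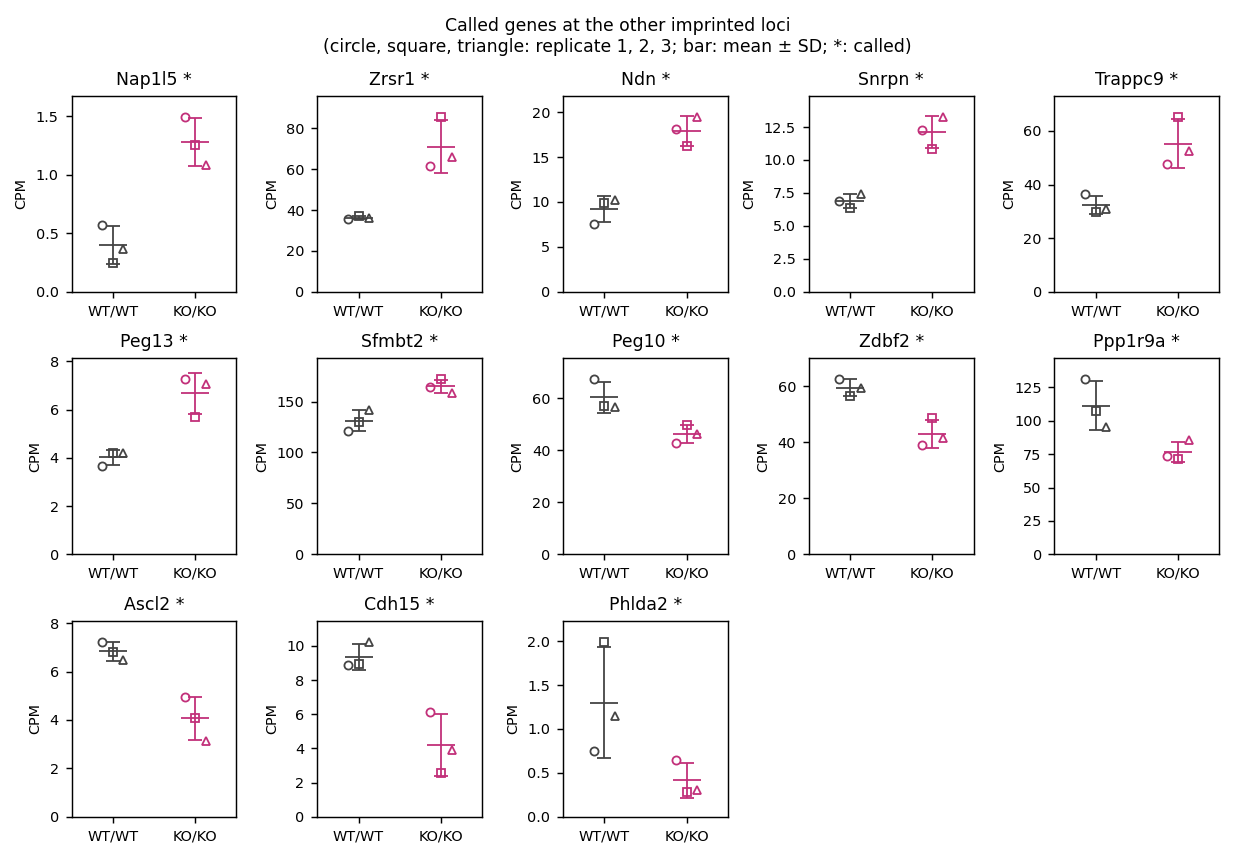
CPM (vertical axis, from 0) of the 13 called genes at the other loci, ordered from the largest rise to the largest fall, with 1 symbol per replicate and bars for mean ± SD. In each panel the 3 KO/KO libraries lie wholly above or wholly below the 3 WT/WT libraries.

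Several loci held no called gene, and 9 of the 26 members that were not called passed in at least 1 alternative. At Peg3 on chromosome 7 all 4 members had positive log2 fold changes, between 0.22 for Peg3 and 1.46 for Usp29, and Usp29, Zim1 and Zim3 lay higher in every KO/KO library (adjusted p = 0.0732, 0.0607 and 0.0868). KO/KO replicate 2 stood apart for Usp29, at 9.53 CPM against 2.44 and 2.65 CPM in the other KO/KO libraries and 1.64 to 1.93 CPM in WT/WT. In GENCODE M21, 73.4% of the exon bases of Zim3 lie under exons on the opposite strand, most of them of Usp29. Mest, a paternally expressed hydrolase gene, measured 11.2, 14.7 and 19.7 CPM across WT/WT replicates against 23.2, 20.6 and 31.5 CPM across KO/KO replicates, which do not overlap, and did not pass the test (log2 fold change 0.73, SE 0.22, adjusted p = 0.0512). It passed in 8 of 13 alternatives, among them DESeq2, limma-voom and the replicate block, with adjusted p between 7.19e-05 and 0.169 over all 13.

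Igf2r, the receptor that clears IGF2, measured 196, 183 and 190.1 CPM across WT/WT replicates against 221, 240.0 and 212 CPM across KO/KO replicates (a log2 change of 0.24, SE 0.08, adjusted p = 0.0632). Airn, the antisense RNA that silences Igf2r in somatic tissue, had 0.0109, 0.00761 and 0.0146 counts per Igf2r count in WT/WT and 0.00717, 0.00253 and 0.00660 in KO/KO. That ratio lay lower in every KO/KO library (mean difference -1.11 on the log2 scale, exact permutation test, two-sided p = 0.1, adjusted p = 0.15), and Airn itself did not pass (adjusted p = 0.206). Grb10, Plagl1, Nnat, Gnas, Nespas, Mcts2, H13, Impact and Inpp5f did not pass either, with log2 fold changes between -0.71 (Nnat) and 0.28 (Gnas). Gnas, which encodes the stimulatory G protein alpha subunit, measured 125, 120.4 and 104 CPM across WT/WT replicates against 119, 137 and 167 CPM across KO/KO replicates. Grb10, an adaptor that restrains insulin signalling, measured 32.7, 27.6 and 22.9 CPM against 14.1, 28.5 and 18.3 CPM, and the zinc finger factor Plagl1 measured 8.58, 8.72 and 8.46 CPM against 7.06, 5.07 and 9.18 CPM. Both overlapped between genotypes. Impact, a regulator of translation, measured 9.80 to 13.3 CPM against 8.47 to 18.1 CPM, and the phosphoinositide phosphatase gene Inpp5f 94.7, 91.2 and 81.1 CPM against 93.4, 119 and 94.2 CPM. Of the 9, Nnat lay lower and H13 higher in every KO/KO library (adjusted p = 0.107 and 0.142).

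Levels were compared between members as CPM per kilobase of exon, with exon lengths from GENCODE M21. In WT/WT the highest were Igf2r at 20.4 ± 0.712 and H19 at 18.7 ± 1.81 (SD, n = 3), which did not differ beyond their spread. Sfmbt2 at 14.4 ± 1.122 and Mcts2 at 14.2 ± 0.949 came next and did not differ beyond their spread either. They were followed by Cdkn1c at 12.2 ± 1.38, which lay within the spread of Mcts2 as well. In KO/KO the level of H19 was 30.9 ± 7.73 and that of Igf2r 24.1 ± 1.55, again within their spread. The level of Dlk1 was 3.58 ± 0.735 in WT/WT and 1.36 ± 0.491 in KO/KO, and that of Igf2 was 1.495 ± 0.162 and 2.35 ± 0.233. Of tested members Magel2 and Kcnk9 were the lowest in WT/WT, at 0.058 ± 0.020 and 0.061 ± 0.030.

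**Figure D4:**
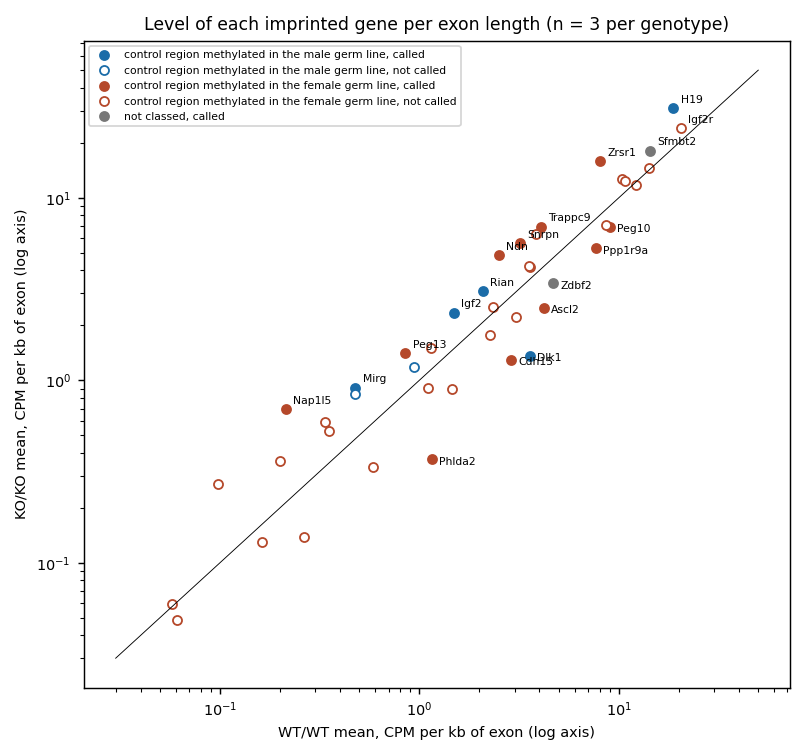
Mean CPM per kilobase of exon in WT/WT (horizontal, log axis) and KO/KO (vertical, log axis) of the 44 tested imprinted genes, with the line of equal levels and n = 3 per genotype. H19, at 18.7 and 30.9, is the highest gene in KO/KO, and Phlda2, Dlk1 and Cdh15 lie farthest below the line among called genes.

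Among 40 further genes at or beside the imprinted clusters, 27 were tested, none rose and 1 fell, namely Ago2 (3.70% called, median log2 fold change -0.07). Of 18 other imprinted genes 16 were tested, 1 rose and 2 fell (18.75% called, against 14.8% over all genes tested). The rise was that of Rhox5, an X-linked homeobox gene with 1.05, 1.02 and 0.368 CPM across WT/WT replicates against 20.6, 21.3 and 28.8 CPM across KO/KO replicates (log2 fold change 4.84, SE 0.32, adjusted p = 8.44e-05). The falls were those of Jade1 and Wars (log2 fold changes -0.35 and -0.40, adjusted p = 0.0308 and 0.0377). Both lost the call without any 1 WT/WT replicate (adjusted p between 0.069 and 0.129 for Jade1 and between 0.105 and 0.151 for Wars), and in 2 of the 3 fits without a KO/KO replicate (0.0748 to 0.0923). With the block they had adjusted p of 0.0569 and 0.0607.

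Of 11 factors that read or protect imprints 1 rose and 2 fell (27.3% called, against 14.8% over all genes tested). Ctcfl, the testis paralogue of the insulator protein CTCF, measured 14.3, 12.4 and 11.3 CPM across WT/WT replicates against 4.91, 9.20 and 6.36 CPM across KO/KO replicates (a log2 change of -0.89, SE 0.22, adjusted p = 0.0264). Dppa3, which protects methylation in the zygote, was scarce and measured 0.365, 0.540 and 0.711 CPM across WT/WT replicates against 0.134, 0.0203 and 0 CPM across KO/KO replicates (adjusted p = 0.029). Arid4a, a chromatin factor implicated in imprinting of the Prader-Willi region, measured 66.5, 66.5 and 73.6 CPM across WT/WT replicates against 84.5, 101 and 93.1 CPM across KO/KO replicates (a log2 change of 0.43, SE 0.09, adjusted p = 0.0143). Ctcfl lost its call without each library but KO/KO replicate 2 (adjusted p between 0.0553 and 0.0979), Dppa3 without each library but KO/KO replicate 1 (between 0.0512 and 0.12), and Arid4a without WT/WT replicate 1 (0.0695) or 2 (0.0878). Zfp57 stood at 2.46 ± 0.121 and 3.68 ± 0.990 CPM and did not pass (adjusted p = 0.147). Of 14 genes reported as a network under Plagl1, 11 of which are members already described, 3 rose (H19, Igf2 and Ndn) and 1 fell (Dlk1). The share called was 28.6%, against 14.8% over all genes tested.

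Among the 18 called members, KO/KO replicate 1 was the nearest of the 3 to the WT/WT mean on the log2 CPM scale for 8, replicate 2 for 6 and replicate 3 for 4. Replicate 2 was the farthest for 9, among them Dlk1, Zrsr1 and Trappc9.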

How the data were processed

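The authors deposited raw read counts per gene. The submitters' processing notes name STAR 2.7.0a, featureCounts 1.5.1 and the build mm10. RNA was total RNA in a SMARTer stranded library, per the labels' protocols. The sources used here do not state the annotation release or how strand and multiply mapped reads were handled. Each library has 55292 rows, of which 1205 are transposable element families and were left out.

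Genotype was tested over all gene rows by quasi-likelihood in edgeR 4.0.16 (R 4.3.3; TMM factors; filterByExpr; no covariate), and p-values were adjusted by Benjamini-Hochberg over all genes. A standard error is the log2 fold change divided by the square root of F. The fit was tested on simulated data. CPM used gene totals and TMM factors. GENCODE M21, on GRCm38 (the assembly of mm10), gave positions, exon lengths and overlaps.

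Full values were given for called members and for male germ line loci, the others by locus. For each further gene list those called were named, at most 4. Members and lists were chosen with earlier results of these data known. Alternatives were RLE and upper quartile factors, other filters, DESeq2 1.42.0, limma-voom (limma 3.58.1), a replicate block, a threshold of 0.01 and leaving out each library. Ratios were tested in scipy 1.17.1 and figures drawn in matplotlib 3.10.9.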

Additional observations from a re-analysis of the deposited data

How the results depend on the processing

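No called member changed direction under any of the alternatives. With an adjusted p threshold of 0.01 in place of 0.05, 756 genes were higher and 501 lower, and of the members 4 were higher and 1 lower. Leaving out 1 library at a time gave between 814 and 1985 genes higher and between 560 and 1380 lower, and between 4 and 13 members higher and between 1 and 6 lower. Beside Mest and Rasgrf1, members that passed in some of 13 alternatives were Usp29 in 4, Zim1 in 3, Sgce, Kcnq1ot1 and Grb10 in 2 each, and Igf2r and Gnas in 1 each. Without a filter on low counts 15 members rose and 10 fell, and with DESeq2 15 rose and 8 fell. All 18 called members kept their call with RLE and upper quartile factors, without a filter and with DESeq2, and 17 did with a filter at 1 CPM in 3 libraries and with limma-voom, in both cases all but Phlda2. RLE and upper quartile factors moved the median log2 fold change of all genes by 0.0035 and -0.0046. With the replicate block 10 members rose and 5 fell, against 11 and 7, and 14 of the 18 calls remained, while 1467 genes were higher and 1107 lower. Deviations of samples with the same number correlated at -0.18, 0.064 and 0.097 for replicates 1, 2 and 3. The highest correlations were between other numbers, WT/WT replicate 1 with KO/KO replicate 2 (0.33) and WT/WT replicate 3 with KO/KO replicate 1 (0.29). With so few samples these values cannot exclude a pairing by number. Depth limits Magel2, Peg12, Kcnk9, Slc22a18 and Nap1l5, which had at most 70 counts in any library.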
